A study of Mus musculus with 16 samples.

Results

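The comparison described is between whole testes of germ-free (GF) male mice, which are raised without any microbes, and testes of conventionally raised (CV) males, which carry a gut microbiota. It rests on 3 GF and 4 CV libraries out of 16 in the series, chosen by their labels, and on 20269 genes with enough reads to test out of 38087 in the count table. The labels of both groups give the same strain, C57BL/6j, an age of 15 to 16 weeks, feeding ad libitum and tissue collection 2 to 4 hours after lights on, with no transgene, drug or infection in either group. Nothing in them says that each library is a different mouse, and no colony, litter or cage is given. The p-values therefore reflect the spread among these libraries, which may be technical, and a difference between the mouse stocks behind the 2 groups cannot be told apart from the microbiota. The series title speaks of female mice, while the sample labels give these libraries as testis from males. Most attention goes to the 1502 called genes that lie outside chromosome 13, because nearly all of them moved by a small amount.

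The testis holds seminiferous tubules, in which spermatogonia divide, spermatocytes pass through meiosis, and round spermatids reshape into elongating spermatids and sperm. Sertoli cells nurse these germ cells, peritubular myoid cells wrap the tubule, and Leydig cells between the tubules make testosterone from cholesterol under the control of luteinizing hormone. Meiosis silences the sex chromosomes, and part of the X-linked genes, many of them specific to the testis, is transcribed again in spermatids. Whole testis RNA mixes all of these cells, so fewer cells of a type and less RNA per cell cannot be told apart.

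Total counts were 25880591 to 28266867 in CV and 26015487 to 27188919 in GF libraries, and the biological coefficient of variation between replicates was 4.17%. Levels are given as CPM, counts scaled to a common library size with TMM factors, as mean ± SD with n = 4 CV and 3 GF, and log2 fold changes are GF over CV. The first principal component, with 33.6% of the variance, placed the CV libraries between -16.36 and -15.35 and the GF libraries between 20.2 and 21.95. Germ cell genes matched the tissue label: Prm1, which packs sperm DNA, stood at 2892 to 3088 CPM in CV and 2782 to 2932 CPM in GF libraries, and Sycp3, of the meiotic chromosome axis, at 144 to 154 and 147 to 150.1 CPM. Of 18 genes of the epididymis and efferent ducts only 4 had enough reads to test. On the second principal component, with 14.9% of the variance, CV1 stood at 13.46 and CV2, CV3 and CV4 at 0.4143, -6.014 and -8.178. In pairwise read counts CV4 stood somewhat apart from the other CV libraries. Its read counts differed from theirs by a chi-square per degree of freedom of 3.62 to 5.17, against 2.38 to 3.89 among the other 3, and several values are therefore also given without it.

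In GF testis 1638 genes were called at a Benjamini-Hochberg adjusted p under 0.05 in edgeR's quasi-likelihood test, 8.08% of those tested (744 higher, 3.67%, and 894 lower, 4.41%). Outside chromosome 13 the test called 1502 of 19065 genes (7.88%), 684 higher (3.59%) and 818 lower (4.29%). Their median absolute log2 change was 0.215, a 1.16-fold difference, with an interquartile range of 0.152 to 0.351. Of the 1502 genes 1289 (85.8%) changed by less than 0.5 on the log2 scale, and 79 by 1 or more. The CV and GF ranges did not overlap for 1371 of the 1502, against 3209 of all 19065 genes tested there (16.8%). Ranking by level showed where such changes were called. In the lowest of 5 equal groups of genes by mean CPM 1.32% were called with a median absolute log2 change of 1.26, and in the highest group 17.6% with a median of 0.149, so small changes were detectable mainly in abundant transcripts.

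**Figure D1:**
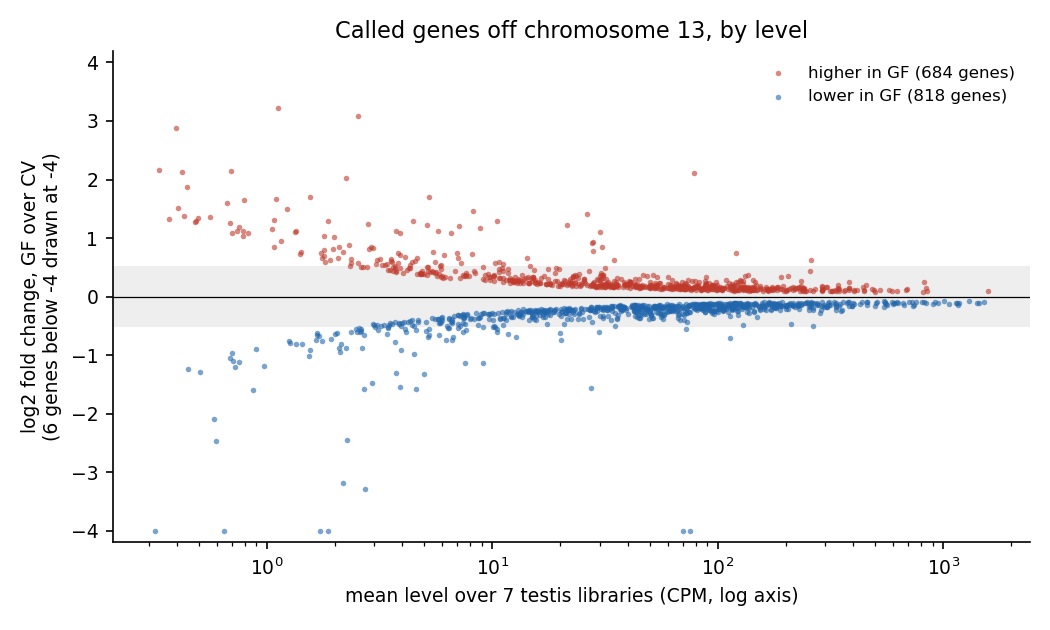
Each point is a called gene outside chromosome 13, with its mean level over the 7 testis libraries (CPM, log axis) and its log2 fold change of GF over CV; the grey band spans changes under 0.5, and 6 genes below -4 are drawn at -4. Most of the 684 higher and 818 lower genes lie inside the band, and the band empties of calls toward low levels.

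The best supported of the small changes included germ cell genes and regulators. Fank1, a fibronectin and ankyrin repeat protein made in testis from meiosis onward, measured 236, 245, 241 and 238 CPM in the CV libraries and 176, 169.9 and 172 CPM in the GF libraries. All GF values lay below all CV values, and its log2 fold change was -0.47 (SE 0.0300, edgeR adjusted p = 3.74e-15). Rpl10l, the autosomal copy of the X-linked ribosomal protein gene Rpl10 that stands in for it during male meiosis, read 152, 147, 143 and 148 CPM in CV and 102, 104 and 110.5 CPM in GF. The log2 fold change of Rpl10l was -0.48 (SE 0.0345, adjusted p = 1.26e-13). Fank1 (ENSMUSG00000053111) lies on chromosome 7 at 133776861 to 133881532 and Rpl10l (ENSMUSG00000060499) on chromosome 12 at 66283379 to 66284401 in GRCm38, the assembly that mm10 denotes.

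Among small increases, Ankar, an ankyrin and armadillo repeat gene, read 178, 181, 182 and 193 CPM in CV and 235, 237 and 230.2 CPM in GF (log2 0.35, SE 0.0310, edgeR adjusted p = 5.19e-11). Atr, the kinase that answers DNA damage and silences the sex chromosomes in meiosis, was higher in every GF library (876, 944 and 889.9 CPM) than in any CV library (743 to 772 CPM). Its log2 fold change was only 0.25 (SE 0.0271, adjusted p = 7.32e-09). Plekhh2, a pleckstrin homology domain protein, rose from 118 ± 3.17 to 151 ± 1.40 CPM, and Tmem194, an inner nuclear membrane protein, from 173 ± 3.88 to 217 ± 12.5 CPM. Falls of like size were those of Daam1, a formin that builds actin filaments (79.6 ± 2.11 to 60.0 ± 1.35 CPM), of Fam123a, a membrane protein that binds the tumour suppressor APC (82.3 ± 5.38 to 61.2 ± 1.39 CPM), and of Adam26a, a testis member of the ADAM protease family (76.0 ± 4.09 to 57.5 ± 1.93 CPM). The dynein light chain pseudogene Dynlt1-ps1 read 215 ± 3.26 and 258 ± 5.21 CPM, but a pseudogene shares sequence with its parent gene and its value is uncertain. These 10 calls held without each library in turn.

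The 6 most abundant named calls outside chromosome 13 whose groups did not overlap all changed by 0.15 or less. Odf1, an outer dense fibre protein of the sperm tail, fell from 1219.6 ± 39.5 to 1099 ± 21.3 CPM (log2 -0.15, SE 0.0267, edgeR adjusted p = 0.000131). Gsg1, a germ cell protein that binds a testis poly(A) polymerase, read 1442 to 1535 CPM in CV and 1334 to 1419.5 CPM in GF, and Spata20, a thioredoxin-like spermatid protein, 1182 to 1236 and 1078 to 1166 CPM. The long nuclear RNA Malat1 was lower in GF (1462 ± 55.0 to 1351 ± 43.6 CPM), and Hspa2, the chaperone of spermatocytes, went from 1332 ± 16.3 to 1257 ± 27.1 CPM. Trip12, a ubiquitin ligase, was the one raised among these genes (1532 ± 39.0 to 1646 ± 32.0 CPM). Apart from that of Odf1 these calls depended on single libraries. Without GF2 the adjusted p was 0.0834 for Gsg1, 0.136 for Spata20 and 0.0727 for Malat1. For Hspa2 it was 0.0724 to 0.17 without CV1, GF2 or GF3, and for Trip12 0.0593 to 0.0633 without GF1 or GF3.

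Genes of round spermatids, the haploid cells that follow meiosis, were lower in GF testis. Of 30 listed genes 15 were called lower and 0 higher, against 4.41% and 3.67% of all genes tested, and the list's median log2 change was -0.11 beside 0.0035 over all genes. Nearly all members stood at 55.8 CPM or more, the range of the highest of the 5 level groups. In that group, outside chromosome 13, 398 of 3898 genes were called lower and 287 higher. Most called members build the acrosome, the enzyme cap with which sperm reach the egg, or serve sperm movement and fusion. 29 of the 30 members had a negative change, the other being Spata16 at 0.05. The called changes lay between -0.29 and -0.08, so they were small, and with a test that demands more than a 1.2-fold change 0 of the 15 remained.

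Catsper4 and Sun5 had the smallest p-values of the list, and the stretch around their start sites is shown beside those of Ankar and Plekhh2, raised genes of small change, so that the 2 kinds can be read side by side. The windows are RefSeq's (GRCm38.p6), 250 bases before to 50 after the start, on the gene's strand and 5′ to 3′, with CG pairs in capitals. They cover chr4:134227334-134227633 (minus strand) for Catsper4, chr2:153871035-153871334 (minus) for Sun5, chr1:72700530-72700829 (minus) for Ankar (1 of 2 windows listed for it) and chr17:84511645-84511944 (plus) for Plekhh2.
Catsper4: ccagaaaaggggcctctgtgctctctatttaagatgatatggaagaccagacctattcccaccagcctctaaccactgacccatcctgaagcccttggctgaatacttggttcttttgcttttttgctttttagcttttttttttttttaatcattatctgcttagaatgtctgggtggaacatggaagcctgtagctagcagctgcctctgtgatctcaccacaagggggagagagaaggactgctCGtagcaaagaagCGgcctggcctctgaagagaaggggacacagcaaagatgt
Sun5: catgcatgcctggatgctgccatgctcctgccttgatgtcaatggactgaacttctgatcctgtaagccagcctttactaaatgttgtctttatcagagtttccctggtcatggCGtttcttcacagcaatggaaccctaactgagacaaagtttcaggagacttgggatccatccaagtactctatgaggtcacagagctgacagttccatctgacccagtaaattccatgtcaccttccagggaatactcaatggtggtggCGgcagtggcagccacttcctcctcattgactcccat
Ankar: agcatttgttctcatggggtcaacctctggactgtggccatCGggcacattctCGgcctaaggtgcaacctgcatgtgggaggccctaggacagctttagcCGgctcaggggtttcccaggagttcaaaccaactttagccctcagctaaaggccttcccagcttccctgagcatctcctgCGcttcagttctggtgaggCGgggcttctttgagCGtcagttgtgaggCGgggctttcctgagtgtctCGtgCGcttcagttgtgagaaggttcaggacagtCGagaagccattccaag
Plekhh2: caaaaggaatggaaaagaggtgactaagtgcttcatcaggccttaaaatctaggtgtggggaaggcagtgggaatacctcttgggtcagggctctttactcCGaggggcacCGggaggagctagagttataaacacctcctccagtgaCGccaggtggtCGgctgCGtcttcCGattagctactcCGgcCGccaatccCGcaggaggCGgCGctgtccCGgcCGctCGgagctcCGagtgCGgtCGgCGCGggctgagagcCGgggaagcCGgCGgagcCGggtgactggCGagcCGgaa

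The Catsper4 and Sun5 windows hold 2 CG pairs each, the Ankar window 10 and the Plekhh2 window 25. Windows were found for 27 of the 30 round spermatid genes, with a median of 4 CG pairs, against a median of 7 over all 32851 windows of the table and of 18 over the tested genes with a window (66.4% of those tested). The cAMP response element TGACGTCA, which reads the same on both strands and is bound by the spermatid factor CREM, was searched in the same windows. It occurred in 1 of the 27, that of Izumo1, in 1.79% of all windows and in 2.93% of those of tested genes. For the called genes as a whole fewer than 80% had a window (72.7% of those higher and 71.4% of those lower outside chromosome 13), too few for a comparison, and their promoters are not compared here. The same limit holds for the values over tested genes, of which 66.4% had a window, so these serve as a rough background only.

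Catsper4, a subunit of the calcium channel of the sperm tail, measured 101, 102, 101 and 94.7 CPM in the CV libraries CV1 to CV4 and 84.2, 83.3 and 85.8 CPM in GF (log2 -0.24, SE 0.0359, edgeR adjusted p = 8.92e-06). Sun5, which couples the sperm head to the tail, measured 83.2, 80.7, 80.9 and 71.6 CPM in CV and 62.9, 65.5 and 66.1 CPM in GF (-0.29, SE 0.0435, adjusted p = 1.54e-05). In both genes CV4 was the CV library nearest to the GF values, yet the groups did not overlap. Izumo1, the sperm protein that binds its receptor on the egg, read 81.1 to 88.5 CPM in CV and 70.4 to 78.2 CPM in GF. The neighbouring actin-like genes Actl7a and Actl7b, on opposite strands of chromosome 4, went from 332 to 362 CPM in CV down to 307 to 321 CPM in GF and from 555 to 599 down to 523 to 536 CPM. Spaca7, an acrosome protein (104 ± 6.10 to 89.6 ± 2.38 CPM), and Acrv1, a protein of the acrosomal matrix (193 ± 8.38 to 173 ± 5.84 CPM), fell by similar shares. These 7 genes were called without each library in turn.

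The other 8 called members lost their call without at least 1 library. Spaca1 of the acrosome membrane (log2 -0.17) lost it without GF1 (adjusted p = 0.0578). Catsper1, the pore of the sperm calcium channel (-0.15), lost it without CV3 or GF1 (0.0504 to 0.0574), and both Spam1, the sperm hyaluronidase (-0.20; 0.0527 to 0.083), and the lysozyme-like Lyzl6 (-0.19; 0.0656 to 0.0728) without GF1 or GF2. Acr, the acrosomal protease acrosin (-0.12; 0.0549 to 0.0951), depended on CV2, GF2 and GF3, and Spaca3, an acrosomal lysozyme-like protein (-0.17; 0.0759 to 0.118), on CV3 and each GF library. Crem, the transcription factor that drives spermatid genes (-0.10), was not called without CV1, CV2, GF1 or GF2 (0.0521 to 0.121). Pgk2, the sperm form of a glycolytic enzyme (-0.08), was called only with all libraries present or without CV4 (0.0517 to 0.219 without any other).

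The count of called round spermatid genes ran from 8 without GF1 and 9 without GF2 to 19 without CV4. Summed over the 30 members the CV libraries CV1 to CV4 held 10170, 10280, 10360 and 9706 CPM and the GF libraries 9796, 9693 and 9660 CPM. CV4 thus lay within the GF range, and it had the lowest CV level in 23 of the 30 genes. Whether what sets CV4 apart bears on the difference between the groups was not tested.

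**Figure D2:**
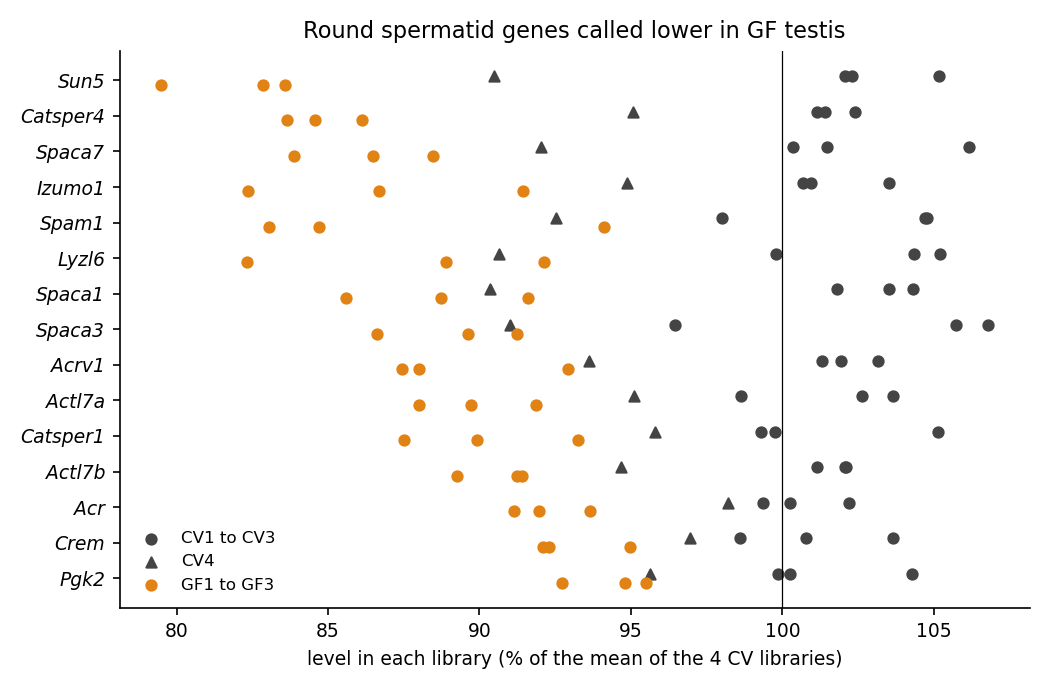
The level of each of the 15 called round spermatid genes is drawn for each library as a percentage of the mean of the 4 CV libraries (CV1 to CV3 dark circles, CV4 triangles, GF orange circles). GF libraries lie below CV1 to CV3 in each gene, and CV4 lies between them or, for Spam1, Lyzl6, Spaca1 and Spaca3, inside the GF range.

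Elongating spermatid genes showed the same direction more weakly, with 5 of 30 called lower, 0 higher and a median of -0.056. The share called, 16.7%, compares with 8.08% over all genes and 17.6% in the highest of the 5 level groups. The called members were Odf1, Gsg1, Cabs1, a calcium-binding spermatid protein (769.8 ± 14.8 to 701 ± 17.7 CPM, log2 -0.14), Spata18 (-0.11) and Oaz3, the antizyme of spermatids (-0.09). Spata18 was not called without GF2 (adjusted p = 0.111), nor Oaz3 without CV2, CV3, GF2 or GF3 (0.0539 to 0.121). The count was 2 without GF2 and 11 without CV4. The chromatin packing genes of late spermatids were not called: Prm1 stood at -0.07 (adjusted p = 0.0817), Prm2 at -0.04 (0.406), Tnp1 at 0.04 (0.503) and Tnp2 at -0.08 (0.284). The summed level of the list overlapped between the groups, at 29740 to 31570 CPM in CV and 28870 to 30540 CPM in GF.

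Spermatocyte genes leaned the other way. Of 33 genes of meiotic prophase 5 were called higher and 1, Hspa2, lower, with a median of 0.053, and their summed level was 6962 to 7017 CPM in CV and 7078 to 7152 CPM in GF, without overlap. The share called in either direction was 18.2%, against 8.08% over all genes. It was near the 17.6% of the highest of the 5 level groups. The raised members included the piRNA pathway, in which small RNAs guide PIWI proteins to silence transposons. Piwil1, the PIWI protein of late spermatocytes and round spermatids, measured 329, 359, 345 and 371 CPM in CV and 417, 422 and 419 CPM in GF (log2 0.26, SE 0.0315, edgeR adjusted p = 3.07e-07). This single gene made up a large part of the difference in the list's summed level, which therefore does not describe the other members. Tdrd1, a Tudor scaffold of the same pathway, rose from 217 ± 6.39 to 244 ± 13.1 CPM, and both Piwil1 and Tdrd1 kept their call without each library. Tdrd9, a helicase of the pathway (0.12), Stag3, the meiotic cohesin (0.09), and Spo11, which makes the meiotic DNA breaks (0.14), were the other raised members. Tdrd9 was not called without GF2 or GF3 (0.057 to 0.0669), Stag3 without CV2, CV3 or any GF library (0.0511 to 0.091), or Spo11 without CV3, GF1 or GF2 (0.0574 to 0.207). Counts of raised spermatocyte genes ran from 2 without GF2 and 3 without CV3 or GF3 to 5.

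Of 21 piRNA pathway genes, 5 of them also on the spermatocyte list, 5 were called higher and 1 lower, and the median was 0.025. That made 28.6% called, against 8.08% over all genes and 17.6% in the highest of the 5 level groups. Beside Piwil1, Tdrd1 and Tdrd9, Piwil2 rose from 213 ± 6.09 to 233 ± 5.59 CPM (adjusted p = 0.00389; 0.0502 without GF2), and the helicase Ddx25 rose by 0.08, a call lost without any 1 library other than CV4 (0.0836 to 0.194). Tdrkh, the scaffold that tethers PIWI proteins to mitochondria, was the lowered one (24.3 to 14.5 CPM, -0.75, adjusted p = 0.0427), and lost its call without any 1 library other than GF1 (0.0613 to 0.126). Without GF2 the count of raised members was 2. Spermatogonia moved little: 1 of 19 genes was called (5.26%, beside 8.08% over all genes), Uchl1, a ubiquitin hydrolase (0.19, adjusted p = 0.0172; 0.0511 to 0.174 without CV3 or GF2). Zbtb16, a factor of spermatogonial stem cells, read 2.88 to 3.97 CPM in CV and 3.15 to 4.83 CPM in GF. The median of the spermatogonia list was 0.13, while its summed level overlapped between groups (605.1 to 631.2 and 602.9 to 629.8 CPM). Of 29 genes of mitosis and DNA replication 2 were called (6.9%, near the share over all genes), both higher. Mcm6, a subunit of the replicative helicase, read 26.1 to 29.2 CPM in CV and 35.2 to 41.5 CPM in GF (0.48, edgeR adjusted p = 9.89e-08), and the proliferation marker Mki67 80.2 to 82.3 and 86.0 to 88.7 CPM, a call lost without any 1 library other than CV4 (0.0795 to 0.185).

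Genes on the X chromosome were called almost only in the lower direction. Of 877 X-linked genes tested 63 were called lower (7.18%) and 2 higher (0.228%), against 4.15% lower and 3.74% higher of 18142 genes on autosomes other than 13. The median log2 change was -0.0574 on the X and 0.00667 on those autosomes, and 63.4% and 47.8% of the changes were negative. Among genes with at least 10 CPM 49 of 261 X-linked genes were called lower (18.8%), against 6.61% of 9358 autosomal ones. The called X-linked changes had absolute log2 values of 0.141 to 0.717, with a median of 0.279. The groups did not overlap in 62 of the 65 called genes. Called genes outside chromosome 13 were alike in this (1371 of 1502), so it is not particular to the X. The 2 raised genes were Tsc22d3, a target of glucocorticoids (0.23), and Maged2 (0.19). Tsc22d3 lost it without CV1, CV2, CV3, GF2 or GF3 (0.0805 to 0.192) and Maged2 without CV3, CV4, GF2 or GF3 (0.0555 to 0.217).

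**Figure D3:**
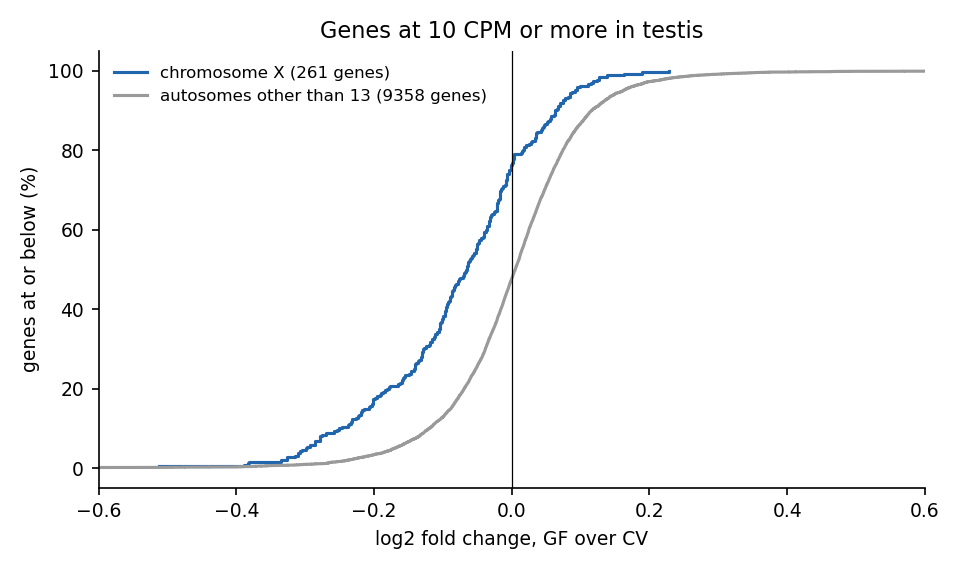
Cumulative curves give the percentage of genes (y axis) at or below each log2 fold change of GF over CV (x axis), for 261 X-linked genes (blue) and 9358 genes of autosomes other than 13 (grey), all with at least 10 CPM. The X curve lies to the left over most of its length, with 76.2% of X-linked genes below 0 against 47.6% of the autosomal genes.

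The X-linked genes named next were taken by smallest p after their values were seen. Tspan6, a tetraspanin membrane protein, measured 71.5, 77.3, 78.6 and 74.1 CPM in CV and 63.0, 57.6 and 62.5 CPM in GF (log2 -0.30, SE 0.0420, edgeR adjusted p = 1.79e-06). Ctag2, of the cancer and testis antigen family, read 49.8, 59.7, 56.8 and 53.0 CPM in CV against 44.2, 40.8 and 41.1 CPM in GF (-0.38, SE 0.0521, adjusted p = 3.62e-06). The lowest CV value exceeded the highest GF value in both. Fam46d went from 55.3 ± 2.67 to 44.4 ± 0.795 CPM, Vsig1, an immunoglobulin family junction protein, from 97.2 ± 3.24 to 82.8 ± 1.82 CPM, and Ppef1, a calcium-regulated phosphatase, from 49.5 ± 2.07 to 40.6 ± 2.08 CPM. Arl13a, a small GTPase (33.1 ± 1.77 to 26.2 ± 0.988 CPM), Satl1 (65.9 ± 1.93 to 55.6 ± 1.75 CPM) and Cdk16, a kinase that spermatids need (112 ± 3.32 to 95.9 ± 6.31 CPM), fell as well. Smaller falls were those of Cylc1, a protein of the sperm head cytoskeleton (89.0 to 80.7 CPM), Cypt3, a cysteine-rich spermatid protein (92.7 to 81.0 CPM), and Tex13a (58.4 to 51.5 CPM). Among all these Cylc1 alone lost its call, without GF2 or GF3 (0.0516 to 0.137).

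X-linked transcripts were poorer in G and C, with a median of 44.9% against 49.5% on the autosomes, and in the lowest of 5 equal groups by GC content outside chromosome 13 194 were called lower and 71 higher. With a per-library correction for GC content and transcript length 59 X-linked genes were still called lower and 2 higher, and the X median was -0.0465. The count of lower X-linked genes was 44 without GF2 and 85 without CV4. Levels were also set beside those in the conventional ovary libraries of the series. Of the 63 lower genes 50 (79.4%) had at least 10 times the ovary level in conventional testis, against 25.7% of all X-linked genes tested. These shares are not matched for level: 51 of the 65 called X-linked genes stood at 10 CPM or more, while the X median was 3.96 CPM. Ovary is the only other tissue compared, so specificity to the testis was not tested.

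The same held less strongly across the genome. Of the 818 genes called lower outside chromosome 13, 429 (52.4%) had at least 10 times more RNA in conventional testis than in conventional ovary, against 129 of the 684 called higher (18.9%) and 15.1% of all tested there. Among genes with at least 10 CPM the share was 53.8% of those called lower and 19.2% of all tested. This classification used the CV testis libraries that also enter the GF comparison, so the 2 measures share samples.

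On the Y chromosome most copies are near-identical and their single values are uncertain. The file's SLY entry (Gm21858 in the annotation) read 2.20 to 2.73 CPM in CV and 4.99 to 5.61 CPM in GF (log2 1.12, edgeR adjusted p = 8.6e-08). Zfy2, a zinc finger protein of meiosis and spermatids, fell from 16.3 ± 0.831 to 13.3 ± 1.25 CPM (adjusted p = 0.0924 without GF1), while the single-copy genes Ddx3y (20.3 ± 0.648 and 19.3 ± 1.35 CPM), Kdm5d (5.56 ± 0.206 and 5.80 ± 0.355 CPM) and Uty (14.2 ± 0.905 and 13.2 ± 0.182 CPM) were not called.

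Somatic cell lists differed in their share of calls, beside 8.08% over all genes. It was 18.8% for peritubular and smooth muscle, 15% for macrophage and MHC class II and 13.3% for endothelial genes, in lists of 15 to 20. None of 30 Sertoli cell genes and none of 26 Leydig cell genes was called, with medians of -0.033 and -0.0033. The same was true of 17 genes of androgen synthesis (median 0.0088) and 14 hormone receptors and gonadal hormones (-0.04). Star, which feeds cholesterol into mitochondria for steroid synthesis, measured 85.2, 121, 85.2 and 61.7 CPM in CV and 80.7, 101 and 80.2 CPM in GF, and Cyp17a1, a testosterone pathway enzyme, 268, 251, 119.6 and 221 against 279.6, 264 and 255 CPM. The wide CV spread of both limits what could be detected. Lhcgr, the receptor for luteinizing hormone, read 5.08 ± 1.62 CPM in CV and 7.29 ± 0.544 CPM in GF (log2 0.53, SE 0.220, edgeR adjusted p = 0.239). Insl3, the Leydig cell hormone, was at -0.07 (0.258), Hsd17b3, which makes testosterone, at 0.01 (0.985), and the Sertoli genes Sox9 and Amh at -0.07 (0.832) and -0.24 (0.696). The call counts of these 4 lists stayed at 0 under each library scaling, but leaving out 1 library gave up to 2 Leydig calls (both lower, without CV3) and up to 1 in each of the others.

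Peritubular and smooth muscle genes were lower where they were called. Of 16 genes 3 were called, all lower, and the median was -0.13. Dcn, the matrix proteoglycan decorin, measured 38.9, 35.0, 42.8 and 42.6 CPM in CV and 29.6, 29.2 and 26.1 CPM in GF (log2 -0.49, SE 0.0641, edgeR adjusted p = 6.49e-06), and kept its call without each library. Smooth muscle actins followed with smaller changes, Actg2 from 237 ± 7.65 to 216 ± 11.2 CPM and Acta2 from 48.1 ± 2.95 to 43.2 ± 1.49 CPM. Actg2 was not called without GF2 or GF3 (0.0632 to 0.0824), nor Acta2 without CV1, CV4 or any GF library (0.0592 to 0.212). The count was 1 without GF2 and reached 6 without CV2. Summed levels of this list were 510.1 to 576.1 CPM in CV and 482.1 to 508.9 CPM in GF. Actg2 alone made up a large part of this sum and of its difference, and which testis cells its reads came from was not tested.

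Endothelial genes split, with a median of -0.056 over 15 genes and 2 called higher: Vwf, the clotting factor carrier (15.2 ± 2.41 to 21.1 ± 1.46 CPM, adjusted p = 0.00383), and Egfl7 (5.94 ± 0.622 to 7.99 ± 0.526 CPM, adjusted p = 0.00433), both also called without each library. Of 20 macrophage and MHC class II genes 1 was called higher and 2 lower. Fcgr3, an activating receptor for immunoglobulin G on macrophages, read 15.3, 15.8, 14.7 and 16.0 CPM in CV and 41.6, 41.0 and 40.2 CPM in GF (log2 1.41, SE 0.0564, edgeR adjusted p = 5.38e-21). It stood apart from its list: Laptm5 was lower (-0.60), Lyz2 at -0.22, the list's median was -0.16, and its summed level overlapped between groups (528.8 to 575.6 and 559.9 to 568.6 CPM). Laptm5 lost its call without CV2, CV3 or any GF library (0.0611 to 0.113) and Lyz2 without any 1 library (0.0511 to 0.184). Fcgr3 lies on chromosome 1 at 171051174 to 171064935. No call was made among 6 lymphocyte, 4 epididymal, 13 adipocyte and 5 red blood cell genes, beside 8.08% over all genes. Without CV4 1 lymphocyte gene was called higher and 1 adipocyte gene lower, and without CV3 1 epididymal gene higher.

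Genes that answer to microbes gave few calls, beside 8.08% over all genes. None of 32 interferon-stimulated genes (median -0.031) and none of 18 genes of the aryl hydrocarbon and xenobiotic response (-0.037) was called, Irf9 at 0.45 (adjusted p = 0.0545) and Hmox1 at 0.29 (0.0838) coming nearest. Without CV2 1 interferon gene was called higher, and without CV3 3 xenobiotic response genes were called lower. Without CV4 1 xenobiotic response gene was called each way. Of 21 genes of microbe sensing and the acute phase 2 were called (9.52%), and the list's summed level was 220 to 236.9 CPM in CV and 199 to 205.7 CPM in GF, without overlap. Lcn2, a protein that binds bacterial siderophores, measured 116, 122, 128 and 130.0 CPM in CV and 94.0, 99.1 and 101 CPM in GF (log2 -0.34, SE 0.0383, edgeR adjusted p = 4.91e-08). This single gene accounted for most of the difference in the list's summed level, which therefore does not describe the other members. Il1b, the cytokine, was higher at 1.08 but on levels of 0.319 to 0.631 CPM in CV and 0.773 to 1.31 CPM in GF, and lost its call without CV1, CV4, GF2 or GF3 (0.0513 to 0.214).

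Clock genes were even: 0 of 21 were called, beside 8.08% over all genes, with a median of 0.0067. Of 19 immediate early genes 2 were called (10.5%, near the share over all genes), both lower. The summed level of the list was 359.7 to 393.3 CPM in CV and 332.6 to 337.5 CPM in GF. Klf4, a transcription factor of round spermatids and Sertoli cells, read 179.6, 189, 184 and 179 CPM in CV and 158, 156 and 156 CPM in GF (log2 -0.22, SE 0.0310, edgeR adjusted p = 2.54e-06). Klf4 alone made up a large part of the list's summed level and of its difference. Jund, the other, was at -0.15 (0.0785 to 0.123 without CV2, CV3 or any GF library). No spliceosome gene of 35 was called, but without CV4 3 were called higher and without GF1 1 lower.

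Calls among ribosomal, mitochondrial and proteasome genes were mostly higher, beside 3.67% higher and 4.41% lower over all genes. The shares called in either direction were 16.4%, 10.9% and 9.09%. In the highest of the 5 level groups outside chromosome 13, 17.6% were called (287 higher and 398 lower of 3898 genes). None of the 3 shares exceeded that of these abundant genes. Of 55 cytosolic ribosomal protein genes 8 were called higher and 1, Rpl10l, lower; 46 had a positive change and the median was 0.037. Rps15 rose from 98.8 ± 2.95 to 121 ± 5.35 CPM (log2 0.29, SE 0.0357, edgeR adjusted p = 1.59e-07), with Rpl10a (0.29) and Rpl9 (0.23) next. Of 55 nuclear genes of oxidative phosphorylation 5 were called higher and 1 lower. The calls were led by Uqcrc2, a core protein of complex III (93.6 ± 3.10 to 107 ± 6.31 CPM), and Cox4i1 of cytochrome oxidase (185 ± 1.53 to 203 ± 5.58 CPM), while Sdhc of complex II fell (-0.21; 0.0609 to 0.089 without GF1 or GF3). Of 33 proteasome genes 3 were called, all higher: Psmd1 (105 ± 1.87 to 123 ± 1.93 CPM), Psmc3 (662 ± 8.51 to 722 ± 7.67 CPM) and Psmd13 (0.12; 0.0512 to 0.184 without any 1 library). Psmd1 lies in the 5 Mb of chromosome 1 that start at 85 Mb, where 15 of 68 genes were called. Summed levels did not overlap for these 3 lists, at 5941 to 6114 against 6168 to 6267 CPM, 4624 to 4714 against 4742 to 4842 CPM, and 4806 to 4860 against 4882 to 4944 CPM. Without GF2 the raised members numbered 3 ribosomal and 2 oxidative phosphorylation genes.

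In glycolysis 4 of 27 genes were called lower and 1 higher, and the lowered members included sperm-specific enzymes. The called share of 18.5% stood beside 8.08% over all genes and 17.6% in the highest of the 5 level groups. Aldoart1 and Aldoart2, the aldolases of spermatids, read 149 ± 1.75 and 123 ± 1.37 CPM, and 316 ± 12.2 and 282 ± 8.86 CPM, in CV and GF. Tpi1 (-0.12) and Pgk2 (-0.08) were the other lowered members. Ldha, the widely used lactate dehydrogenase subunit, rose in all GF libraries (882, 884 and 900.3 CPM) above all CV libraries (793, 794, 809 and 800.2 CPM; log2 0.15, SE 0.0250, edgeR adjusted p = 3.36e-05), and its sperm counterpart Ldhc stood at 0.00 (3023 ± 83.2 and 3020 ± 48.3 CPM).

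The axoneme, the microtubule core of cilia and the sperm tail, showed calls both ways, 7 higher and 3 lower of 40 genes with a median of 0.046. This was 25% of the list, beside 8.08% over all genes and 17.6% in the highest of the 5 level groups. Rsph3a, a radial spoke protein, read 159.8 to 172 CPM in CV and 183 to 191 CPM in GF, and Dnahc12, a dynein heavy chain, 312 to 348 and 353 to 367 CPM, while Ift81, of the transport along the axoneme, fell from 179 to 188 CPM in CV to 162 to 165 CPM in GF. The raised count depended on single libraries, with 2 without GF3 and 16 without CV4, and the summed level of the list overlapped.

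The remaining lists held scattered calls, with 2.86% to 11.1% of their members called, beside 8.08% over all genes. Among 22 junction genes of the blood-testis barrier Marveld2, of chromosome 13, was called higher (0.93). Chromatin regulators gave 2 calls each way of 36: Brd3 at 0.15 (0.0704 without GF3), Rnf2 at -0.17 (0.0513 without CV3), Dnmt3l at -0.34 (0.0528 to 0.131 without CV1, CV3, GF2 or GF3), and Dnmt3a, a DNA methyltransferase, at 0.21 (0.0582 to 0.209 without any 1 library other than CV4). Cholesterol synthesis had 1 of 26, Fdps (0.14; 0.0555 to 0.256 without CV1, CV3, CV4, GF1 or GF2), and 4 were called higher without CV2. Fatty acid metabolism had 2 of 25, Acsbg2 (-0.14; 0.0685 without GF3) and Acsl1 (-0.08; 0.0892 to 0.191 without CV1, CV2, CV3, GF2 or GF3). Of 30 heat shock and unfolded protein response genes Herpud1 was higher (0.15; 0.0724 without GF1), and Hspa2 and Ero1lb of chromosome 13 (-1.08) lower. Of 35 antioxidant genes only Nnt was called, the mitochondrial transhydrogenase of chromosome 13, which read 75.6 to 79.7 CPM in CV and 97.6 to 104 CPM in GF (log2 0.38, SE 0.0363, edgeR adjusted p = 4.32e-10).

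**Figure D4:**
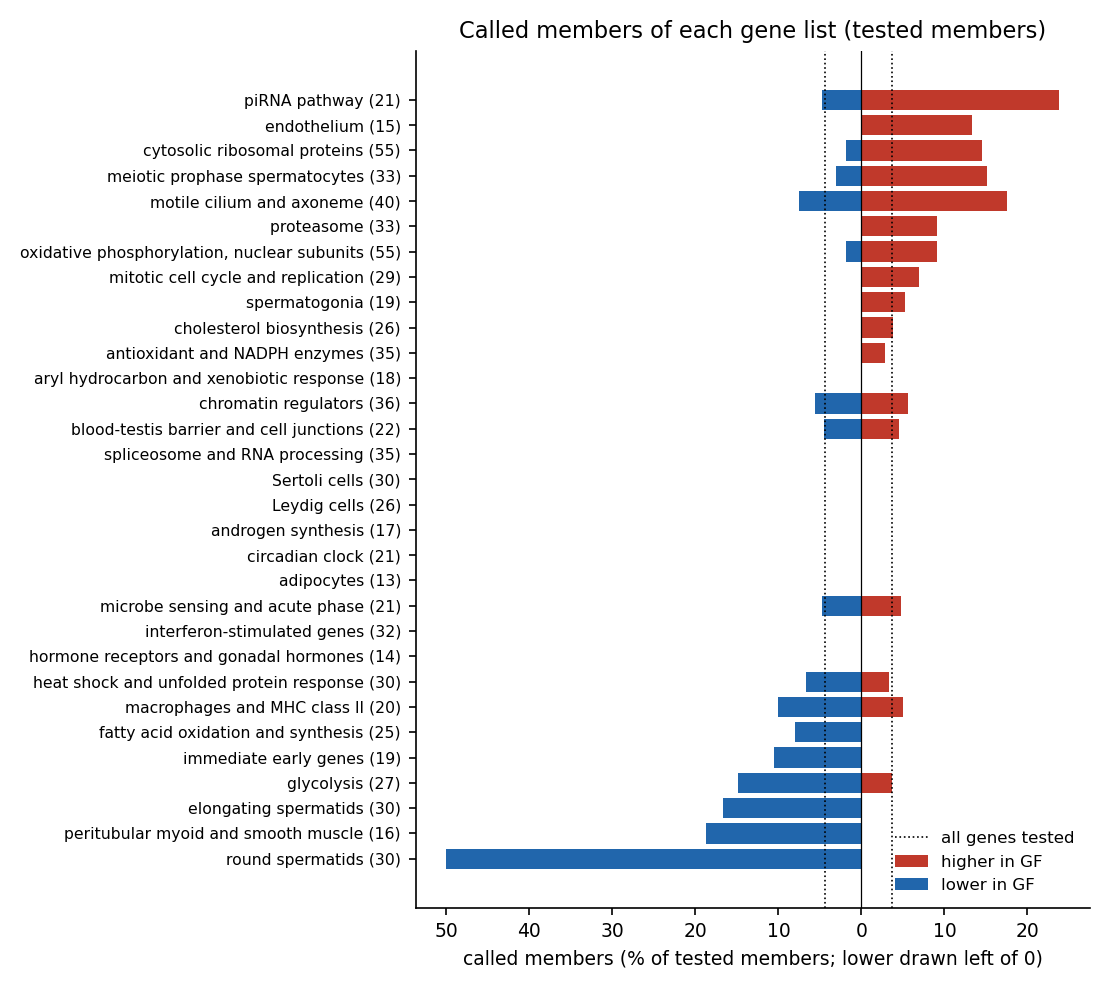
Bars give the percentage of tested members (number in brackets) of each list with at least 10 of them that were called higher (red, right) or lower (blue, left) in GF testis; dotted lines mark 3.67% and 4.41%, the shares over all genes. Round spermatids stand out on the lower side with 15 of 30 genes, and Sertoli, Leydig, androgen, interferon and clock lists hold none.

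Small changes were found on all chromosomes. On the 19 chromosomes other than 13 and Y, between 4.63% (chromosome 15) and 8.92% (chromosome 12) of tested genes were called with a log2 change under 0.5, and 406 of 524 windows of 5 Mb outside chromosome 13 held at least 1 such gene. Of the 213 called genes with a change of 0.5 or more, 48 lay in 9 windows that were picked because they hold at least 4 such genes, so their share there was fixed by the choice and is given as a description. The windows described next are among them and were chosen after their values were seen. Chromosome 13 had 115 of 743 genes called (15.5%), with a median absolute log2 change of 0.506, and among autosomes chromosomes 1 and 12 followed with 12.9% and 11.4%.

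**Figure D5:**
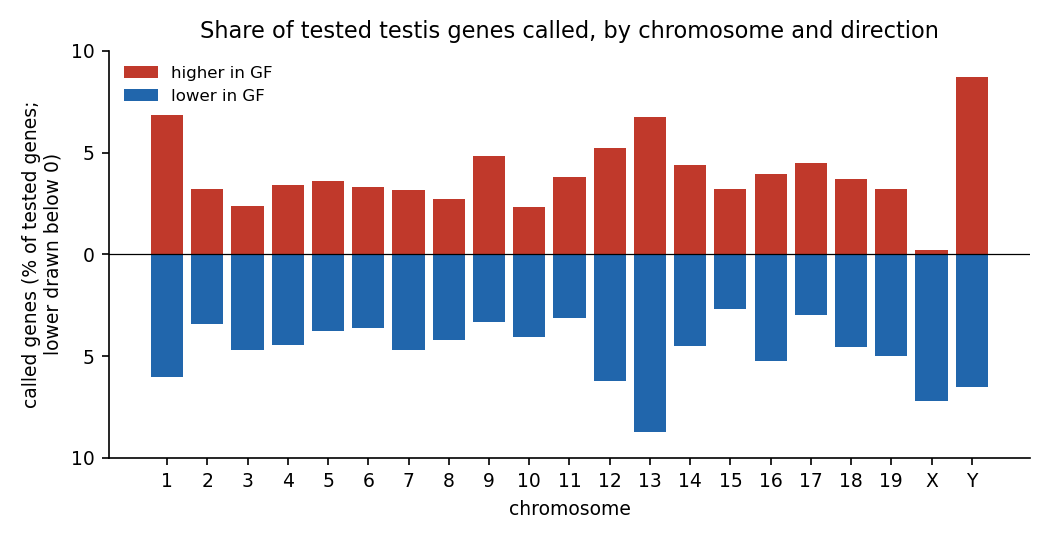
Bars give the percentage of tested genes on each chromosome called higher (red, above 0) or lower (blue, below 0) in GF testis. Chromosome 13 has the highest share on an autosome, and chromosome X has 7.18% lower against 0.228% higher.

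The window of chromosome 12 from 70 to 75 Mb had 18 of 40 genes called, 14 of them lower. Tomm20l, a testis relative of a mitochondrial import receptor (71111428 to 71123221), measured 38.1 ± 1.94 CPM in CV and 12.9 ± 1.03 CPM in GF (log2 -1.56, SE 0.0640, edgeR adjusted p = 9.99e-21). Snapc1, of the complex that transcribes small nuclear RNA genes, fell from 11.9 ± 0.948 to 5.42 ± 0.335 CPM. The potassium channel gene Kcnh5 rose from 26 counts in the 4 CV to 184 in the 3 GF libraries (3.22). Daam1 lies in the same window.

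In the 5 Mb of chromosome 1 that start at 120 Mb 6 of 10 genes were called. Tmem37, a calcium channel subunit, went from 2.66 ± 0.574 to 8.74 ± 0.667 CPM, Dpp10 rose by 1.17 and Steap3, an iron reductase, by 1.28 on the log2 scale, while Htr5b, a serotonin receptor gene, fell from 4.93 to 2.62 CPM. From 15 to 20 Mb of chromosome 5 all 7 called genes of 16 were higher, among them Speer4c and Speer4d (1.11 and 1.09), testis genes of a family of near-identical copies whose single values are uncertain.

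Other larger changes included Hes1, the Notch target gene on chromosome 16, at 5.77, 6.65, 6.31 and 6.98 CPM in CV and 15.3, 15.7 and 16.4 CPM in GF (2.46-fold, SE 0.0823 on the log2 scale, edgeR adjusted p = 3.74e-15). Faim3, a receptor for immunoglobulin M, fell from 3.54 ± 0.478 to 0.384 ± 0.204 CPM, Nmur1, a neuromedin receptor, from 3.50 ± 0.387 to 0.643 ± 0.281 CPM, and Afm, a vitamin E carrier, from 3.78 ± 0.553 to 1.26 ± 0.338 CPM. Nmur1 lies in the 5 Mb of chromosome 1 that start at 85 Mb, where 15 of 68 genes were called. The germ layer factor Eomes (0.662 ± 0.103 to 1.64 ± 0.0131 CPM), the mucin Muc6 (0.354 ± 0.0630 to 1.08 ± 0.213 CPM) and the lipase Lipi (0.788 ± 0.411 to 2.57 ± 0.333 CPM) were higher on low levels. So was Serpina1f (1.49), whose call ended without CV3 or CV4 (0.0795 to 0.0973). Lower on low levels were Cdh20 (-1.60), Gpr158 (-0.95) and Krt73 (-1.18; 0.0528 without GF3). On chromosome 13, where histone copies are near-identical and uncertain, the named changes included Prl2c5 (5.43), Hist1h2ao (4.19) and Akr1c21 (3.69) upward and Hist1h4m (-2.75) and Hist1h2bn (-1.46) downward.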

How the data were processed

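Gene counts of exon reads per library were deposited by the authors as 1 table. STAR 2.4.0i and the build mm10 are listed among the submitters' processing notes, and per the labels' protocols total RNA was depleted of ribosomal RNA and prepared with a stranded kit. For the counting tool, its annotation and any use of strand the labels name nothing (not given in the sources used here), so reads of overlapping antisense genes may not be separated.

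The counts of the 7 testis libraries were fitted without the ovary libraries in edgeR 4.0.16 (R 4.3.3): TMM factors, filterByExpr, robust quasi-likelihood F test, group as the only term, Benjamini-Hochberg adjustment over 20269 genes, threshold 0.05. Standard errors are the absolute coefficient over the root of F. No count column was left without a sample. Positions of 36308 genes came from GENCODE M21 by gene ID, with 1779 unmatched.

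The members and the 34 gene lists (920 of 923 symbols found) were chosen with earlier results of these data known. Named are called genes with a usual symbol, without overlap of the groups and with 1 CPM in either group: outside chromosome 13 the 10 largest changes each way, the 10 smallest p among changes under 0.5 and the 6 highest levels, 3 each way on chromosome 13, up to 3 per list, and 12 fixed genes. Other genes in the text, among them X-linked and list members beyond the rule, were named after their values were seen. Some results that the rule selects are not reported here. Alternatives were other scalings, filters and tests (DESeq2 1.42.0, limma 3.58.1), a fold threshold, a GC and length correction, a replicate block and leaving out each library.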

Additional observations from a re-analysis of the deposited data

Results flagged for a closer look

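In 4 of 158 named genes 1 of the 4 CV libraries lay far from the other 3 (2.53%; chance flags about 1 in 20 groups). The gap to the nearest library, as a share of the range of the group, was 0.871 for Actl7b, where CV4 had 555 CPM against 593 to 599, and 0.83 for Catsper4, where CV4 had 94.7 CPM against 101 to 102. It was 0.844 for Herpud1, where CV1 had 165 CPM against 175 to 177, and 0.927 for Nmur1, where CV3 had 4.08 CPM against 3.29 to 3.34. Actl7b, Catsper4 and Nmur1 remained called without each of the 7 libraries in turn.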

How the results depend on the processing

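All 1638 called genes kept their direction in every alternative that tested them. Other scalings, filters, limma-voom and the GC and length correction called 1579 to 1791 genes, and DESeq2 1217. A test against a 1.2-fold change called 171 genes, 65 higher and 51 lower outside chromosome 13, with 0 lower X-linked and 0 lower round spermatid genes. Leaving out 1 library gave 996 (without GF2) to 2084 calls (without CV4), outside chromosome 13 390 to 824 higher and 500 to 1110 lower, 44 to 85 lower X-linked genes and 8 to 19 lower round spermatid genes. Higher calls numbered 429 without GF3, and round spermatid calls 9 without GF2. Of the 134 called genes that are named 85 kept the call without each library. Libraries of the same number did not deviate together (correlations -0.0427, 0.0142 and -0.0252), so they share only a number; a replicate block over the 3 numbered pairs called 1692 genes, against 2084 for the same libraries without it, and 1584 with the GC and length correction. With 3 and 4 libraries, small changes in genes of low level were mostly not detectable.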

Other observations

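A few large changes fell on genes with predicted names, chosen here after their values were seen. A copy of the U2 small nuclear RNA, part of the spliceosome, on chromosome 1 at 72255008 to 72255198 (Gm25939) read 121 ± 10.7 CPM in CV and 2.51 ± 0.195 CPM in GF (log2 -5.59, edgeR adjusted p = 6.09e-16). Another copy nearby, at 72226240 to 72226430 (Gm25360), was higher in GF, at 32.3 ± 2.48 and 140.3 ± 8.67 CPM (2.12, adjusted p = 5.08e-18). The long noncoding RNA AC120136.1, whose span from 72236465 to 72274869 contains the first copy on the same strand, read 127 CPM in CV and 7.65 CPM in GF (-4.05). Its counts totalled 13635 for CV and 612 for GF, beside 13059 and 201 for the first copy. The fall of AC120136.1 therefore cannot be read as separate from that of the U2 copy within it. Whether its remaining sequence changed was not tested. Near-identical copies can share reads, and how the counting assigned such reads was not tested. The opposite changes of the U2 copies are therefore uncertain as single values.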
